A study of Mus musculus with 15 samples.

Results

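The genes described here encode 29 subunits of voltage-gated sodium channels, voltage-gated calcium channels and HCN channels, together with the sodium leak channel *Nalcn*. The list was drawn up by gene name, with earlier results of these data known. Of the 29 genes, 28 had a row in both deposited tables, and the expression of *Scn4a* was not analysed here. A mean normalized count of at least 10 was reached by 25 of them in each table, among 16727 genes tested for *Lhx6* and 16132 for *Mtg8*. The normalized count is the number of reads assigned to a gene divided by a factor that corrects for library size.

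The study profiled migrating interneurons of the medial ganglionic eminence (MGE) in mouse embryos labelled as lacking either LHX6, a LIM-homeodomain transcription factor of this lineage, or its co-factor MTG8, encoded by *Runx1t1*. All embryos were E14.5, on a mixed C57BL6/CBA background, and carried Nkx2-1-Cre with the R26R-YFP fl/fl reporter, so YFP marked cells whose lineage had expressed Nkx2-1-Cre, and YFP+ cells were sorted from the cortex. The *Lhx6* table held 4 control libraries (Lhx6+/+) and 5 mutant libraries (Lhx6-/-, a germline loss-of-function allele made from floxed mice), and the *Mtg8* table held 3 control libraries (Mtg8+/+) and 3 libraries labelled as mutant (Mtg8-/-, a LacZ knock-in line), each library from 1 embryo. The comparison of mutant with control in each table is described below for every channel subunit.

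Voltage-gated sodium channels carry the upstroke of the action potential through a large pore-forming alpha subunit, and beta subunits set the gating and the surface level of the pore. High-voltage-activated calcium channels open during strong depolarization and need alpha2delta and beta subunits to reach the membrane, whereas T-type channels open near the resting potential without them. HCN channels open on hyperpolarization and carry an inward current, and *Nalcn* passes a steady sodium leak. In migrating interneurons, calcium entry is known to shape movement, and the set of channels changes as the cells mature.

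Depth ranged from 12218422 to 22053032 reads per library. As a check of the labels, *Lhx6* was between 236 and 495 normalized counts in the mutants and between 5812 and 8441 in the controls. *Runx1t1* was between 12250 and 13934 normalized counts in the libraries labelled *Mtg8* mutant and between 7938 and 10265 in their controls, which goes against the label. A count over the whole gene does not show whether the part altered by the LacZ insertion was read, so these are called the libraries labelled *Mtg8* mutant throughout. The cells were sorted as MGE-derived interneurons, and *Sst* and other MGE markers summed to between 28287 and 32259 normalized counts in the *Lhx6* controls and between 43233 and 45855 in the *Mtg8* controls. Markers of the pyramidal lineage, which the sorted cells should lack, summed to between 13039 and 18655 normalized counts in the *Lhx6* controls, between 10835 and 14884 in the *Lhx6* mutants, between 5102 and 12878 in the *Mtg8* controls and between 7897 and 20397 in the libraries labelled *Mtg8* mutant. Library names in the sample labels come in 2 styles, dated and undated, whose meaning is not stated. All 4 *Lhx6* controls and mutant replicate 6 have undated names and the other 4 *Lhx6* mutants have dated names, whereas both *Mtg8* groups hold both styles. The methods describe the mutants as littermates of the controls, and some names share a stem whose meaning is not stated either. *Lhx6* mutant replicate 6 shares its stem with control replicates 1 and 2, *Lhx6* mutant replicates 2 and 5 share another, and labelled *Mtg8* mutant replicate 2 shares its stem with control replicates 1 and 2, which are all the dated libraries of that table. Markers of microglia summed to at most 763 normalized counts in any library, those of endothelium and pericytes to at most 669 and those of oligodendrocyte precursors to at most 489, and those of erythroid cells ranged from 1798 to 58615.

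The sequences upstream of a few start sites are shown because *Scn1a* was the 1 channel subunit called by limma, edgeR or DESeq2, and because *Rims1*, *Rem2* and *Cachd1*, whose products act on calcium channels, were called together. Each line gives the 250 bases before an annotated start in RefSeq on GRCm38.p6, read 5′ to 3′ on the strand of the gene, with GGGCGG and its reverse complement CCGCCC in capitals. The windows lie at chr2:66440838-66441087 (minus strand) for *Scn1a*, chr1:22806159-22806408 (minus strand) for *Rims1*, chr14:54475850-54476099 (plus strand) for *Rem2* and chr4:100776429-100776678 (plus strand) for *Cachd1*.
Scn1a: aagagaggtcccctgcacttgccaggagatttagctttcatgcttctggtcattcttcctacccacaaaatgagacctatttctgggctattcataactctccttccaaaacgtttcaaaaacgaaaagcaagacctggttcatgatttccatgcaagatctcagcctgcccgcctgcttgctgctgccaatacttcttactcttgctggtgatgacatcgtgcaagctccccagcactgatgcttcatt
Rims1: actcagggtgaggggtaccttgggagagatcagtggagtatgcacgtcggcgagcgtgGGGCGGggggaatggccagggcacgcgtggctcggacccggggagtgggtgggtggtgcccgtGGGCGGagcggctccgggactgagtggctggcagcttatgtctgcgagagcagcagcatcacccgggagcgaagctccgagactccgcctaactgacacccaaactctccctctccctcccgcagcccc
Rem2: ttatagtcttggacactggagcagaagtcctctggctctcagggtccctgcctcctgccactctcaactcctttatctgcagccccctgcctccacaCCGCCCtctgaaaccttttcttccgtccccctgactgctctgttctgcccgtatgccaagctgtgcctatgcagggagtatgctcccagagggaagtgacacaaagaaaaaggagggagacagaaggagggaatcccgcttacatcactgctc
Cachd1: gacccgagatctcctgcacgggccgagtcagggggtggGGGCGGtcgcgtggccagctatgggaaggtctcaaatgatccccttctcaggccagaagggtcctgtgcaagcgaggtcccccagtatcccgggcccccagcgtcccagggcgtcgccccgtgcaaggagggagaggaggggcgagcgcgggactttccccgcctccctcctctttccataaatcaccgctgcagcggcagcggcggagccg
The *Scn1a* window had 46.8% G and C and 0 GGGCGG motifs, whereas the windows of *Rims1* and *Cachd1* had 68.0% and 68.8% and held 2 and 1 motifs. The *Rem2* window had 55.6% and held 1 motif. RefSeq windows of this length were at hand for 22 of the 29 channel genes, 32 windows in all, of which 12 held GGGCGG on either strand (37.5%, against 32.7% of all 32851 windows). The letters TAATTA, the core that LIM-homeodomain factors recognise, were searched on both strands and were in 0 of the 32 windows, against 4.84% of all windows. The windows of the channel genes had a median of 62% G and C, against 52.4% over all windows, and neither share was matched for this. These matches describe letters only.

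Most of the channel subunits were already transcribed at E14.5, and their levels differed widely. Levels of different genes are compared only as normalized count per kilobase of summed exon length, and the 2 tables were normalized separately. In the *Lhx6* controls the highest were *Cacnb3* at 337 ± 51.0 per kilobase (SD, n = 4), *Scn3b* at 218 ± 46.6, *Scn3a* at 204 ± 19.7 and *Cacnb4* at 121 ± 14.1. In the *Mtg8* controls the same 4 genes led, with *Scn3b* at 516 ± 88.0 per kilobase (SD, n = 3), *Scn3a* at 294 ± 26.0, *Cacnb3* at 250 ± 25.3 and *Cacnb4* at 201 ± 3.61. At the other end, *Scn4b*, *Cacna2d4* and *Hcn2* had at most 10 reads in any library.

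**Figure D1:**
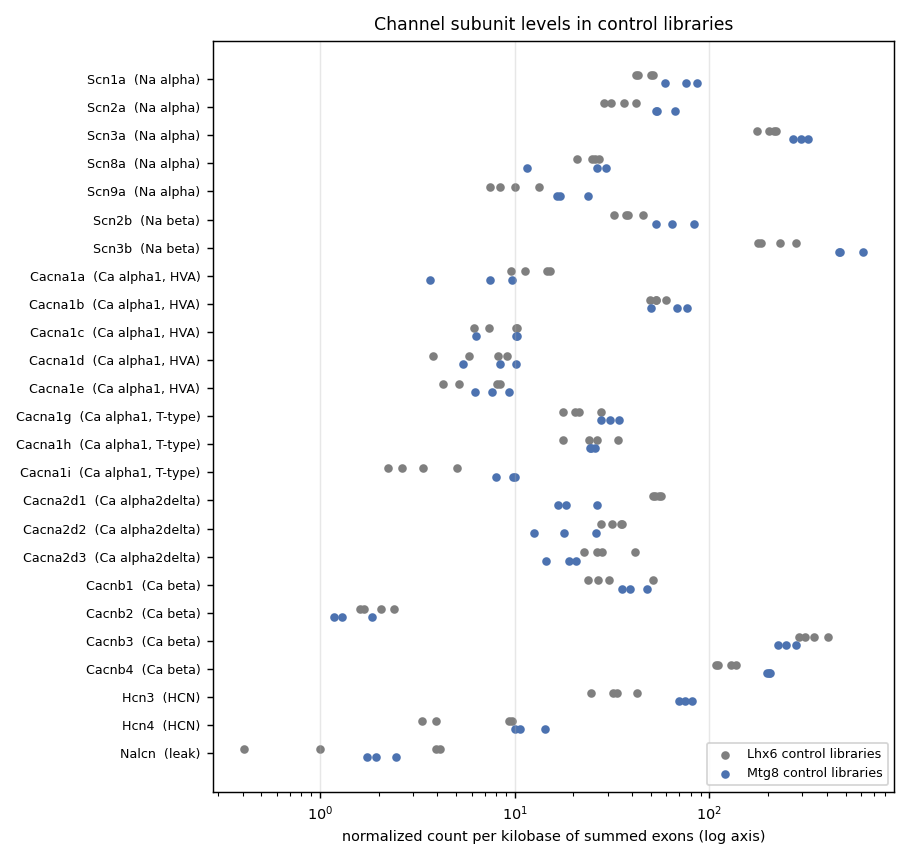
Each point is a control library, plotted by its normalized count per kilobase of summed exons (horizontal log axis) for the 25 channel genes that reached the minimum mean, with *Lhx6* controls in grey and *Mtg8* controls in blue. *Cacnb3*, *Scn3b*, *Scn3a* and *Cacnb4* lie farthest to the right, and *Cacnb2* and *Nalcn* farthest to the left.

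Among sodium channel alpha subunits, *Scn3a*, the embryonic isoform of the brain, was the highest. It held 63.8% ± 2.75 (SD, n = 4) of the length-scaled alpha subunit signal in *Lhx6* controls and 63.1% ± 4.45 (SD, n = 3) in *Mtg8* controls. *Scn1a*, which later in life is a main sodium channel of fast-spiking interneurons, followed with 14.6% ± 0.932 and 15.8% ± 2.87. *Scn2a* held 10.8% and 12.3%, *Scn8a* 7.77% and 4.77%, and *Scn9a*, best known from pain-sensing neurons, 3.05% and 4.07%. *Scn3a*, *Scn2a*, *Scn1a* and *Scn9a* lie within a stretch of 1178 kb on chromosome 2 (GRCm38), and *Scn8a* lies on chromosome 15. The share of *Scn3a* ranged from 58.5% to 67.4% in *Lhx6* mutants and from 60.3% to 66.4% in their controls, so the groups overlapped. The share of *Scn1a* ranged from 12.9% to 23.9% in *Lhx6* mutants and from 13.2% to 15.3% in their controls, which overlapped as well.

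**Figure D2:**
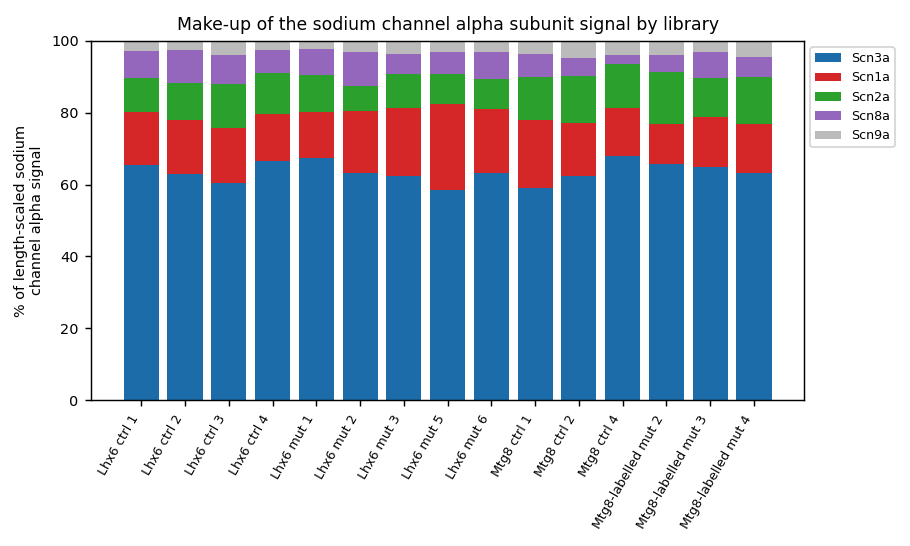
Each bar is a library, divided into the percentage of the length-scaled signal of 5 sodium channel alpha subunits that each gene holds. *Scn3a* holds more than any other in each library, between 58.5% and 67.8%.

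Of the beta subunits, which are small adhesion-type proteins, *Scn3b* stood at 218 ± 46.6 per kilobase and *Scn2b* at 38.4 ± 5.42 in the *Lhx6* controls, and *Scn4b* had 0 or 1 read in each *Lhx6* library and 0 to 3 reads in each *Mtg8* library. Among high-voltage-activated alpha1 subunits, the N-type gene *Cacna1b* held 61.3% ± 3.24 of the signal in *Lhx6* controls and 67.6% ± 2.77 in *Mtg8* controls. The P/Q-type gene *Cacna1a*, the L-type genes *Cacna1c* and *Cacna1d* and the R-type gene *Cacna1e* shared the rest, each with 6.97% to 14.2%. Among T-type subunits, *Cacna1g* and *Cacna1h* stood at 21.8 ± 4.28 and 25.6 ± 6.68 per kilobase in *Lhx6* controls, within their spread, and at 31.0 ± 3.27 and 24.9 ± 0.771 in *Mtg8* controls. *Cacna1i* was the lowest, at 3.33 ± 1.24 per kilobase in *Lhx6* controls and 9.32 ± 1.12 in *Mtg8* controls. *Cacna2d1* led the alpha2delta subunits in *Lhx6* controls with 46.5% ± 4.18 of their signal. In *Mtg8* controls it held 35.7% ± 3.13, within the spread of *Cacna2d2* at 32.2% ± 4.04 and *Cacna2d3* at 31.8% ± 5.09, and *Cacna2d3* was higher than it in control replicate 1. *Cacna2d4* had at most 4 reads in any library. *Cacnb3* and *Cacnb4* together made up most of the calcium channel beta signal, with 68.2% and 24.7% in *Lhx6* controls and 50.7% and 40.8% in *Mtg8* controls. *Hcn3* led the HCN channels with 82.0% and 86.2%, *Hcn4*, the pacemaker isoform of the heart, held 15.5% and 13.4%, and *Hcn2* had at most 10 reads in any library.

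In *Lhx6* mutants no channel subunit passed limma's adjusted threshold, and 1 of 25, *Scn1a*, passed it in DESeq2 on the recovered reads. Across all genes 1.71% were called by limma (286 of 16727) and 4.82% by DESeq2 (772 of 16023), so that the counts of channel genes called, 0 and 1 of 25, are near or under these shares. At an unadjusted limma p under 0.05 there were 5 channel genes, all higher in the mutants, beside 12.7% of all genes in either direction. Of all 16727 genes tested, 942 were lower and 1190 higher at that p. By edgeR 0 channel genes were called. The median log2 fold change of the 25 channel genes was 0.20, with 17 positive, whereas that of all genes tested was -0.04, with 46.6% positive. With the name style, described above, as a covariate, the median of the channel genes was 0.0128, with 13 of 25 positive, beside 0.0106 and 51.2% positive for all genes tested. In whole sorted populations, fewer cells of a type and less RNA per cell cannot be told apart.

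*Scn1a* was the 1 channel gene whose *Lhx6* mutants all stood above all controls. Its normalized counts were 558, 470, 573 and 476 in control replicates 1, 2, 3 and 4, and 736, 722, 832, 1362 and 661 in mutant replicates 1, 2, 3, 5 and 6. The groups did not overlap, and replicate 5 was well above the other mutants. Across all genes, all mutants were above all controls for 3.19% and below all controls for 3.03%, and the corresponding counts among the 25 channel genes were 1 and 0. The gene lies at chr2:66270778-66440840 on the minus strand (GRCm38). The log2 fold change of *Scn1a* was 0.68 ± 0.21 (SE) with a limma adjusted p of 0.146, and 0.73 ± 0.22 with an adjusted p of 0.0287 in DESeq2. Over the alternatives run the log2 fold change ranged from 0.35 to 0.77 and the adjusted p from 0.0287 to 0.999983. An exact two-sided permutation test gave p = 0.0159, where the smallest that 4 against 5 libraries allow is 0.00794. Mutant replicate 6, the one mutant with an undated name like all controls, was higher than the mean of the controls by 0.35 on the log2 scale.

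The other sodium channel genes had smaller differences, and each had mutants inside the control range. *Scn3a* had 2804, 2240, 2582 and 2731 normalized counts in control replicates 1 to 4 and 4397, 3050, 3171, 3802 and 2684 in mutant replicates 1, 2, 3, 5 and 6. The 4 mutants with dated names were above all controls and replicate 6 was among them. Its log2 fold change was 0.38 ± 0.15 (SE, limma adjusted p = 0.307). *Scn9a* had 128, 95.7, 170 and 108 in the controls and 152, 150, 182, 200 and 139 in the mutants, with overlap (limma adjusted p = 0.488). *Scn3b*, the leading beta subunit, had 1519, 973, 1262 and 1006 in the controls and 1258, 1202, 1957, 1232 and 1185 in the mutants, with replicate 3 apart from the others (limma adjusted p = 0.674). The adjusted limma p-values of *Scn2a*, *Scn8a* and *Scn2b* were 0.870, 0.552 and 0.659.

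Calcium channel genes differed in both directions in *Lhx6* mutants, and none was called by limma, edgeR or DESeq2. *Cacnb4*, a beta subunit that carries the pore to the membrane, had 1226, 993, 1163 and 967 normalized counts in the controls and 1268, 1496, 1856, 1690 and 1133 in mutant replicates 1, 2, 3, 5 and 6. Here too the dated mutants were above all controls and replicate 6 lay inside their range, and the log2 fold change was 0.44 ± 0.17 (SE, limma adjusted p = 0.282). Part of this gene is annotated on both strands: 1433 of its 8963 exonic bases overlap an antisense gene, A430018G15Rik, whose mean was at most 5.56 normalized counts, and without knowledge of the strand setting their reads cannot be told apart. *Cacnb3*, the leading beta subunit, had 1621, 1151, 1384 and 1242 in the controls and 1156, 907, 1530, 992 and 1192 in the mutants (limma adjusted p = 0.584). Of the summed beta subunit signal, *Cacnb4* held 24.0% to 26.2% in the controls and 27.4% to 40.6% in the mutants, and *Cacnb3* held 65.4% to 70.9% and 52.7% to 64.4%, so that neither share overlapped between the groups. Both are parts of one sum, and they were the 2 of 24 such shares within a role whose groups did not overlap in this table, beside 5 of 24 in the *Mtg8* table. Those 5 were *Cacna1c*, *Cacna1h* and *Cacnb2*, higher in the labelled mutants, and *Cacna1b* and *Cacna1i*, lower. These shares were not tested. They were computed for channel genes alone, so there is no rate over all genes to set beside them. *Cacnb2*, the lowest beta subunit, had 31.7, 22.2, 21.2 and 27.4 in the controls and 22.3, 78.7, 26.08, 3.88 and 6.19 in the mutants, with the mutants both above and below all controls (limma adjusted p = 0.753).

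The T-type gene *Cacna1i* had 26.0, 22.2, 49.7 and 33.4 normalized counts in the controls and 68.1, 52.8, 41.9, 50.4 and 54.5 in mutant replicates 1, 2, 3, 5 and 6. Control replicate 3 overlapped the mutants, and the log2 fold change was 0.74 ± 0.34 (SE, limma adjusted p = 0.387). *Cacna1h*, another T-type gene, had 236, 174, 332 and 259 in the controls and 406, 203, 313, 396 and 187 in the mutants (limma adjusted p = 0.740). The groups overlapped, as they did for the high-voltage-activated genes. Of these, *Cacna1b* had 530, 495, 595 and 529 in the controls and 681, 537, 406, 572 and 358 in the mutants (limma adjusted p = 0.832), and *Cacna1e* had 109, 213, 205 and 130 in the controls and 217, 168, 272, 288 and 85.4 in the mutants (limma adjusted p = 0.762). *Cacna1a*, *Cacna1c*, *Cacna1d*, *Cacna1g*, *Cacna2d3* and *Cacnb1* had log2 fold changes between -0.39 and 0.25 and overlapped as well. The alpha2delta genes *Cacna2d1*, a gabapentin receptor, and *Cacna2d2* had log2 fold changes of -0.45 ± 0.24 and -0.46 ± 0.24 (SE, limma adjusted p = 0.459 for each). *Cacna2d1* was between 636 and 699 in the controls and had 283, 583, 396, 627 and 674 in mutant replicates 1, 2, 3, 5 and 6, with 4 of 5 below all controls.

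*Hcn4* had 24.0, 20.4, 59.0 and 57.3 normalized counts in the controls and 102, 84.2, 57.7, 123 and 48.3 in mutant replicates 1, 2, 3, 5 and 6. The controls fell into a low and a high pair, and 3 mutants were above all of them. The log2 fold change was 1.10 ± 0.42 (SE, limma adjusted p = 0.280) and 23 to 127 reads lay behind each value. *Hcn3* had 138, 103, 177 and 133 in the controls and 171, 115, 109, 126 and 165 in the mutants, with a log2 fold change of -0.01 ± 0.24 (SE). *Nalcn* had 57.7, 61.2, 14.7 and 5.99 in the controls and 42.1, 39.8, 23.3, 8.72 and 1.24 in the mutants. A spread this wide within each group could not show a difference of that size (log2 fold change -0.69 ± 0.93, SE).

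The mutant libraries of the *Lhx6* table did not stand alike against the controls. Mutant replicates 1 and 5 were above the range of all controls for 14 and 13 of the 25 channel genes, replicates 2 and 3 for 9 and 7, and replicate 6 for 3. The same counts over all genes tested were between 24.7% and 36.8% of genes per library. With the name style added to the fit, which leaves the estimate to replicate 6 against the controls, the log2 fold change of *Scn1a* was 0.35, of *Scn3a* 0.06, of *Cacnb4* 0.07 and of *Hcn4* 0.41. The part of the name style in these differences was not tested, since only 1 mutant shares the style of the controls. In the same libraries 4 of 7 MGE markers, among them *Sst* and *Satb1*, were called lower by limma, with sums of 7928 to 17828 normalized counts against 28287 to 32259 in controls, and 0 of 8 pyramidal lineage markers were called. Markers of interneurons of the caudal ganglionic eminence summed to 2272 to 3022 in mutants and 1533 to 1912 in controls, with *Adarb2* called higher and *Htr3a* and *Npas1* called lower by limma, and 2 of 8 GABAergic markers, *Dlx5* and *Dlx6*, were called higher. Markers of radial glia and dividing cells summed to 8585.5 to 18046 in mutants and 9616 to 11686 in controls. Of these 8 markers 7 had a positive log2 fold change, 0 were called by limma and 1 was called higher by DESeq2. Of 5 erythroid markers 0 had a positive log2 fold change and 0 were called by limma or DESeq2. The part of these markers in the channel differences was not tested either.

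**Figure D3:**
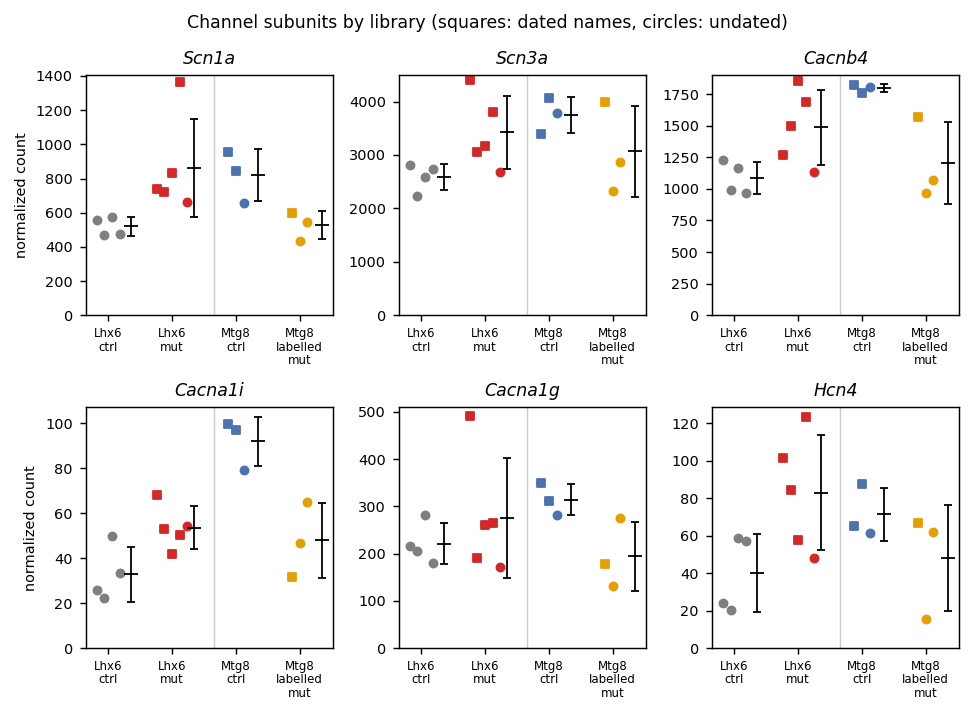
Normalized counts (vertical axis, starting at 0) of 6 channel genes in each library, with squares for dated and circles for undated library names and black bars for the mean and SD of each group. Tables left and right of the grey line were normalized separately. *Scn1a* does not overlap between groups in either table, and the undated *Lhx6* mutant is the lowest of the *Lhx6* mutants for *Scn1a*, *Scn3a*, *Cacnb4*, *Cacna1g* and *Hcn4*.

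In the libraries labelled *Mtg8* mutant no channel subunit was called by limma, edgeR or DESeq2. Limma called 0% of all genes and DESeq2 0.202% (32 of 15812). At an unadjusted limma p under 0.05 there were 4 channel genes, all lower than in controls, beside 5.49% of all genes in either direction. Of all 16132 genes tested, 393 were lower and 493 higher at that p. The groups did not overlap for 5 of the 25, with 4 lower and 1 higher, where 5.52% and 4.68% of all genes did so. The median log2 fold change of the channel genes was -0.13, with 11 of 25 positive, beside -0.01 for all genes tested. It was -0.0178 beside -0.0173 with the name style as a covariate, and -0.0542 beside 0.0583 with libraries scaled to equal totals. Exact permutation tests of 3 against 3 libraries cannot go below p = 0.1, the value reached by each of these 5 genes.

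The 4 lower genes were *Scn1a*, *Cacnb4*, *Cacna1g* and *Cacna1i*. *Scn1a* had 958, 846 and 658 normalized counts in control replicates 1, 2 and 4 and 598, 436 and 546 in labelled mutant replicates 2, 3 and 4, a log2 fold change of -0.63 ± 0.23 (SE, limma adjusted p = 0.859). *Cacnb4* had 1824, 1762 and 1808 in the controls, the tightest group of this comparison among the 4, and 1571, 971 and 1069 in the labelled mutants (log2 fold change -0.61 ± 0.21, limma adjusted p = 0.859). *Cacna1i* had 99.5, 97.0 and 79.2 against 31.7, 46.9 and 65.0 (-0.98 ± 0.35, limma adjusted p = 0.859). *Cacna1g*, the highest T-type gene in these controls, had 349, 311 and 283 against 179, 131 and 274 (-0.75 ± 0.29, limma adjusted p = 0.859). In each of the 4 genes all labelled mutants were below all controls, *Cacna1g* by the smallest gap. The differences ranged from -1.60 to -0.19 within dated and from -0.83 to -0.43 within undated libraries, where the negative sign follows from groups that do not overlap.

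The 1 higher gene was *Cacnb2*, a beta subunit near the low end of the levels, with 15.6, 17.1 and 24.5 normalized counts in the controls and 24.9, 42.3 and 36.7 in the labelled mutants (log2 fold change 0.82 ± 0.43, limma adjusted p = 0.859). Replicate 2 of the labelled mutants was just above the highest control. *Cacna2d1* overlapped, with 227, 330 and 208 in the controls and 527, 354 and 271 in the labelled mutants (0.56 ± 0.29, limma adjusted p = 0.859). *Scn3a* had 3398, 4058 and 3778 in the controls and 4000, 2333 and 2867 in the labelled mutants, where replicate 2 was inside the control range (-0.32 ± 0.21, limma adjusted p = 0.870). *Scn3b* had 2536, 2549 and 3375 against 2019, 1607 and 2674 (-0.44 ± 0.22, limma adjusted p = 0.859).

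The remaining subunits overlapped between the groups. *Scn9a* had 211, 305 and 217 in the controls and 249, 114 and 204 in the labelled mutants. *Cacna1b* had 680, 766 and 496 in the controls and 575, 414 and 436 in the labelled mutants, and *Cacna1a* had 120, 91.7 and 45.0 in the controls and 61.2, 83.6 and 70.3 in the labelled mutants. *Scn2a*, *Scn8a*, *Scn2b*, *Cacna1c*, *Cacna1d*, *Cacna1e*, *Cacna1h*, *Cacna2d2*, *Cacna2d3* and *Cacnb1* had log2 fold changes between -0.32 and 0.39. *Cacnb3* had 1110, 908 and 994 in the controls and 827, 982 and 1480 in the labelled mutants, and *Hcn3* had 338, 289 and 310 in the controls and 313, 273 and 431 in the labelled mutants. *Hcn4* was at 64.8, 87.4 and 61.6 in the controls and 66.8, 15.6 and 61.9 in the labelled mutants, and replicate 3 stood far below the rest. *Nalcn* had 25.7, 36.3 and 28.4 in the controls and 51.0, 30.3 and 54.3 in the labelled mutants. In these libraries 8 of 8 pyramidal lineage markers had a positive log2 fold change and 2, *Neurod2* and *Emx1*, were called higher by DESeq2. The summed level of 7 MGE markers was between 26944 and 28956 normalized counts in labelled mutants and between 43233 and 45855 in controls. Of these 7 markers 0 were called by limma and 1 was called lower by DESeq2. The sum of 8 radial glia and dividing cell markers was between 9055 and 12936 in labelled mutants and between 6999 and 7879 in controls. Markers of interneurons of the caudal ganglionic eminence summed to 1702.97 to 2160 in labelled mutants and 1566 to 1703.47 in controls. Of these, 5 of 6 had a positive log2 fold change and 1 was called higher by DESeq2. Positive values were also found for 3 of 3 oligodendrocyte precursor markers (median 2.05), 5 of 5 erythroid markers and 2 of 8 GABAergic markers. The part of these markers in the channel differences was not tested.

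The channel genes are set side by side for the 2 comparisons, which share no library. Of the 25 genes, 11 had a positive log2 fold change in *Lhx6* mutants and a negative one in the libraries labelled *Mtg8* mutant, 5 had the reverse, 6 were positive in both and 3 negative in both. Opposite signs thus made up 64.0% of the channel genes and 54.4% of the 15629 genes tested in both tables. With the name style in both fits the count of opposite signs was 13 of 25, beside 43.5% of all genes. Whether the effects on any gene differ between the 2 tables was not tested, and the authors scaled each table on its own. *Scn1a* was the 1 channel gene whose groups were separate in both tables, higher in *Lhx6* mutants and lower in the libraries labelled *Mtg8* mutant. Of the 15629 genes tested in both tables, 152 (0.973%) had separate groups in both, 64 of them (0.409%) in opposite directions and 47 (0.301%) in these directions.

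**Figure D4:**
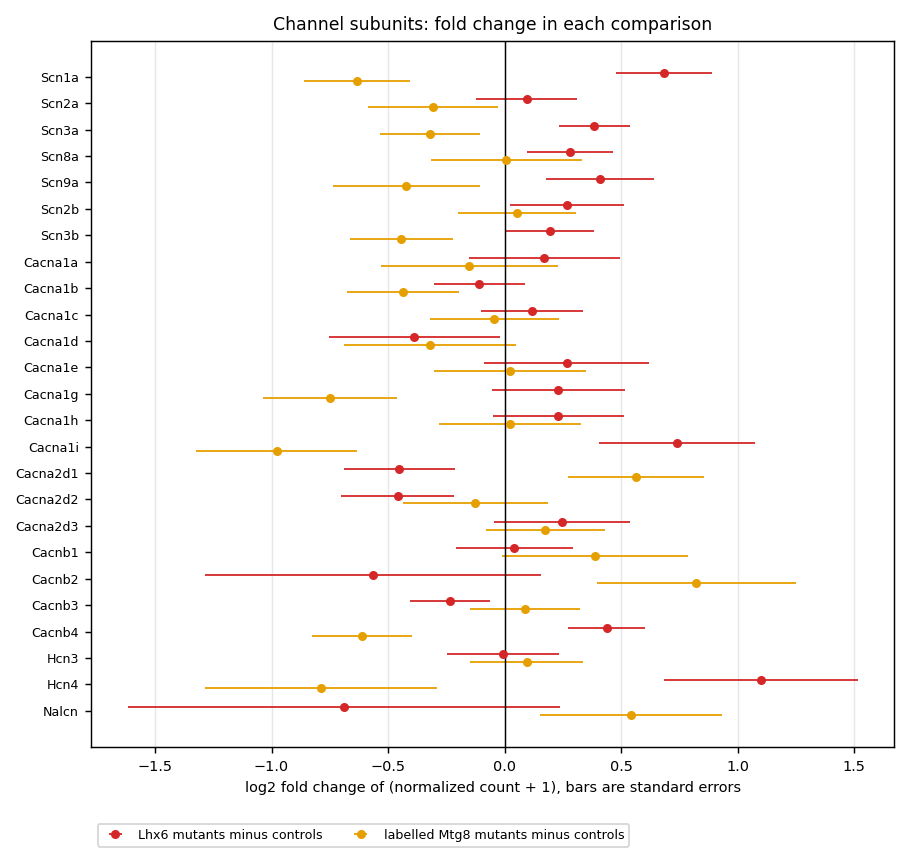
Log2 fold change of log2(normalized count + 1), mutant minus control, with standard errors, for 25 channel genes in *Lhx6* mutants (red) and in the libraries labelled *Mtg8* mutant (orange). *Scn1a*, *Cacnb4*, *Cacna1i* and *Hcn4* lie right of 0 in red and left of 0 in orange, and none is past the limma threshold.

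Proteins that bind or regulate these channels were examined as a list of 38 partner genes, of which 26 were tested for *Lhx6* and 25 for *Mtg8*. In *Lhx6* mutants limma called 3 of 26, all higher, beside 1.71% of all genes, and each acts on calcium channels. With the replicate number as a block limma called 0 partner genes, and 86 genes in all. That fit compares only libraries whose replicate number occurs in both groups, so it uses fewer libraries. DESeq2 called the same 3 and 1 lower gene, *Fgf11*, beside 4.82% of all genes. At an unadjusted limma p under 0.05 there were 6 higher and 2 lower genes, beside 12.7% of all genes. The median log2 fold change of the 26 was 0.15, with 16 positive, beside -0.04 for all genes tested, and with the name style as a covariate it was -0.0106, with 11 positive, beside 0.0106.

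*Rims1* encodes a scaffold of the presynaptic active zone that binds calcium channel beta subunits. It had 203, 147, 222 and 141 normalized counts in control replicates 1 to 4 and 620, 468, 379, 494 and 321 in mutant replicates 1, 2, 3, 5 and 6 (log2 fold change 1.34 ± 0.23, SE, limma adjusted p = 0.0077). *Rem2*, a small GTPase of the RGK family that lowers high-voltage-activated calcium current, had 145, 84.2, 143 and 103 in the controls and 235, 241, 266, 266 and 313 in the mutants (1.17 ± 0.22, limma adjusted p = 0.0139). *Cachd1*, an alpha2delta-like protein that raises T-type current, had 339, 413, 248 and 281 in the controls and 703, 595, 659, 547 and 526 in the mutants (0.94 ± 0.18, limma adjusted p = 0.0193). For all 3 genes every mutant, the undated replicate 6 included, was above every control, and the exact permutation p was 0.00794, the smallest these group sizes allow. Replicate 6 exceeded the mean of the controls by 0.87, 1.43 and 0.74 on the log2 scale for *Rims1*, *Rem2* and *Cachd1*, and with name style as a covariate none passed limma's threshold (adjusted p = 0.762, 0.224 and 0.777). Leaving out 1 library at a time, *Rims1* stayed past limma's threshold throughout. *Cachd1* lost it without control replicate 4, 1 or 3 or mutant replicate 2 (limma adjusted p = 0.091, 0.0593, 0.077 and 0.0508), and *Rem2* lost it without control replicate 4 or 2 (0.0648 and 0.0553), so that the count of partner genes called was 1 without control replicate 4. *Rims1* lies at chr1:22286251-22805994, *Rem2* at chr14:54476100-54480431 and *Cachd1* at chr4:100776675-101029220 (GRCm38).

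*Fgf11*, an intracellular FGF-related protein of the family that binds sodium channel alpha subunits, had 162, 191, 167 and 169 normalized counts in the controls and 115, 32.4, 90.3, 80.4 and 85.4 in the mutants, with no overlap. Its log2 fold change was -1.19 ± 0.33 (SE) with a limma adjusted p of 0.111 and a DESeq2 adjusted p of 0.0225. *Ank3*, which gathers sodium channels at the axon initial segment, had 3308, 3040, 3288 and 3087 in the controls and 7368, 4561, 4485, 4837 and 3139 in the mutants, where replicate 6 again lay in the control range (0.56 ± 0.19, limma adjusted p = 0.218). *Rims2* had a log2 fold change of -0.57 ± 0.20 (limma adjusted p = 0.238).

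In the libraries labelled *Mtg8* mutant 0 of 25 partner genes were called by limma or edgeR. DESeq2 called 0 of the 23 to which it gave an adjusted p. At an unadjusted limma p under 0.05, 5 of the 25 were lower and 0 higher, beside 5.49% of all genes in either direction. Over all genes, 393 were lower and 493 higher at that p. The groups did not overlap for 5 of the 25, with 4 lower and 1 higher, *Gem*, another RGK GTPase, beside 5.52% of all genes lower and 4.68% higher. *Rims2* had 1100, 1062 and 928 normalized counts in the controls and 620, 520 and 712 in the labelled mutants (-0.75 ± 0.21, SE, limma adjusted p = 0.783). *Fgf11* had 275, 283 and 249 against 215, 131 and 155 (-0.71 ± 0.26, limma adjusted p = 0.859). *Fgf12* had 463, 402 and 386 against 222, 336 and 320, and *Stac2*, an adaptor of L-type channels, had 283, 199 and 240 against 101, 186 and 149. *Rims1*, *Rem2* and *Cachd1* overlapped between the groups, with log2 fold changes of -0.48 ± 0.37, 0.81 ± 0.66 and 0.54 ± 0.32.

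**Figure D5:**
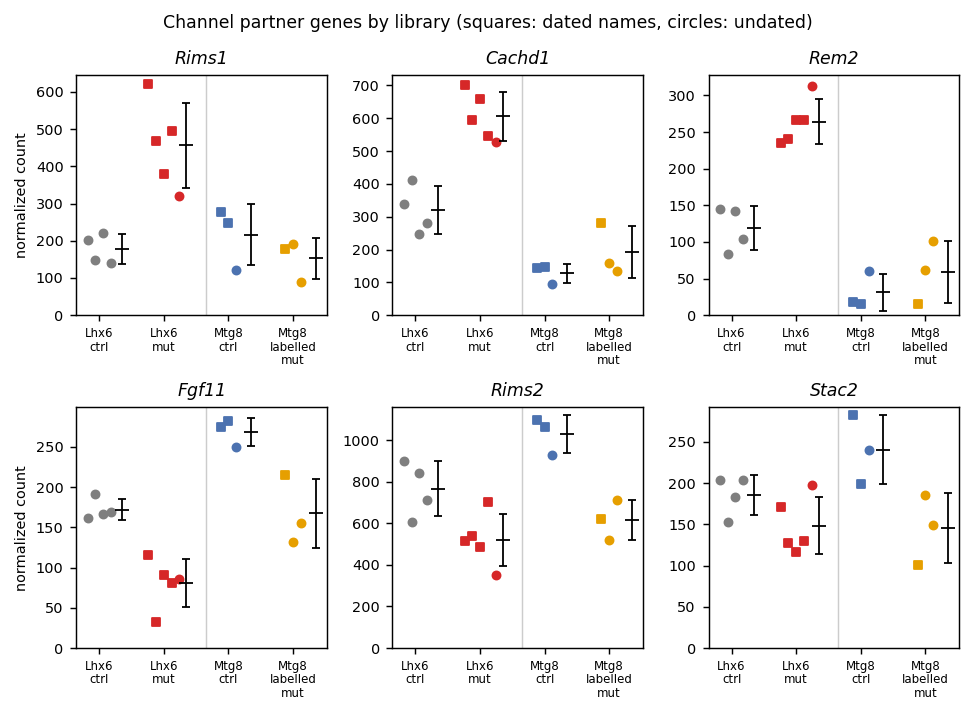
Normalized counts (vertical axis, starting at 0) of 6 partner genes in each library, with squares for dated and circles for undated library names and black bars for the mean and SD of each group. *Rims1*, *Rem2* and *Cachd1* are higher in all 5 *Lhx6* mutants than in all 4 controls, and *Fgf11* is lower in all of them.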

How the data were processed

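YFP+ cells sorted from E14.5 cortex were profiled by RNA-seq, with 1 embryo per library and single 75-base reads. The authors used fastp 0.20.1 for trimming, STAR 2.7b for alignment to GRCm38.p6 and featureCounts 1.6.4 for counting per gene (strand use not given in the sources used here), left out sex-linked genes and deposited, for each experiment, a table of counts divided by DESeq2 size factors, a normalized signal. All deposited values were whole multiples of 1 read (100% within 0.01), so whole reads were recovered. The tables also hold gene lengths, used here, and the authors' own fold changes and p-values, not used here.

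Genes whose mean normalized count reached 10 entered the fit. Values were set to log2 after adding 1, and limma 3.58.1 in R 4.3.3, allowing the variance to follow the mean, was run on each table alone. P-values were two-sided and adjusted by Benjamini-Hochberg over all genes tested, with a threshold of 0.05. A log2 fold change on this scale understates the change of low genes. DESeq2 1.42.0 and edgeR 4.0.16 (quasi-likelihood) on recovered reads, other pseudocounts, filters and scalings, the replicate number, the name style and leaving out each library were alternatives. The limma step was tested on simulated data. Exact permutation tests used the same log2 values. Depth was 12218422 to 22053032 reads per library.

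The channel genes and partner genes were chosen with earlier results of these data known. The rule was to give full values for genes called by limma or DESeq2 and for the highest and lowest gene of each role. Ranges or p-values were given for others. It was not followed for *Scn2b*, *Scn4b*, *Cacna2d3*, *Cacna2d4* and *Hcn2*, low genes of their roles whose values per library were not printed. *Cacnb4*, *Hcn4*, *Ank3*, *Rims2*, *Fgf12*, *Stac2* and *Gem* were added after their values were seen.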

Additional observations from a re-analysis of the deposited data

Results flagged for a closer look

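*Scn3b* stood apart in 1 *Lhx6* mutant library: replicate 3 had 1957 normalized counts, whereas the other 4 mutants had 1185 to 1258. On the log2(normalized count + 1) scale the gap to its nearest neighbour was 0.88 of the range of the group, above Dixon's limit of 0.71 for 5 samples. *Cacna2d2* stood apart in replicate 1, with 324 normalized counts against 145 to 176 in the other 4 mutants, a gap of 0.763 of the range on the same log2 scale. Among 50 gene and group combinations examined on this scale, 2 were past the limit, and a rate of 1 in 20 would give 2.5. On the normalized counts themselves, a scale added after the data were seen, 3 were past it, with gaps of 0.905 for *Scn3b*, 0.8294 for *Cacna2d2* and 0.757 for *Scn1a*, whose replicate 5 had 1362 against 661 to 832 in the other 4 mutants.

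On the log2 scale *Scn1a* differed by 0.68 in *Lhx6* mutants, with every mutant above every control, and -0.63 in the libraries labelled *Mtg8* mutant, with every library below every control. The difference between the effects was not tested. Over the 15629 genes tested in both tables, the groups were separate in opposite directions for 64 (0.409%).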

How the results depend on the processing

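Of the 25 channel genes tested, 0 were called by limma or edgeR in either table under the alternatives run or with any 1 library left out (0 to 0), and DESeq2 called 1 in *Lhx6* mutants, *Scn1a*. The 3 partner genes called in *Lhx6* mutants became 4 by DESeq2, 2 by limma without the mean-variance trend, where *Cachd1* had an adjusted p of 0.0514, 0 with the replicate block and 0 with name style as a covariate, and 1 to 4 with 1 library left out. In the libraries labelled *Mtg8* mutant, partner calls were 0 throughout. Over all genes, the *Lhx6* count of 286 was 772 by DESeq2, 86 with the replicate block, 57 with name style, and 159 to 491 with 1 library left out. It was 159, 174 and 173 without control replicate 1, 2 and 4 and 491 without mutant replicate 6. The *Mtg8* count of 0 was 1 with no filter, 2 with a minimum mean of 50, 1 by edgeR, 32 by DESeq2, 100 with the replicate block and 0 to 86 with 1 library left out, the 86 without labelled mutant replicate 2. The cause was not tested. With the replicate block, only numbers found in both groups bear on the estimate. These are 1, 2 and 3 for *Lhx6* and 2 and 4 for *Mtg8*, so that the other libraries do not count in that fit.

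Some replicate numbers are shared by the groups. In the *Lhx6* libraries, deviations of same-numbered libraries correlated at -0.15, 0.00 and 0.07, and those of differently numbered libraries at -0.21 to 0.18. In the *Mtg8* libraries, deviations of same-numbered libraries correlated at 0.14 and 0.16, and those of differently numbered libraries at -0.18 to 0.0778. So few pairs cannot decide whether the numbers pair the *Lhx6* or the *Mtg8* samples. Under the replicate block *Rims1*, *Cachd1* and *Rem2* had limma adjusted p = 0.183, 0.327 and 0.401.

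Of 56 single-gene results 24 changed sign under at least 1 alternative, none of them past a threshold. With name style as a covariate, values in *Lhx6* mutants were -0.28 for *Scn2a*, -0.12 for *Scn2b*, -0.0311 for *Cacna1c*, -0.87 for *Cacna1e*, -0.35 for *Cacna1g*, -0.38 for *Cacna1h*, 0.0128 for *Cacna2d1* and 0.28 for *Hcn3*. *Cacnb1* was at -0.0142 with equal library totals, -0.0216 by edgeR and -0.0175 by DESeq2, and *Cacnb2* at 0.11 by edgeR, 0.10 by DESeq2 and 0.53 with the replicate block. In the libraries labelled *Mtg8* mutant *Scn8a* was at -0.0887 by edgeR and -0.10 by DESeq2. With the replicate block *Scn2b* was at -0.0708, *Cacna1a* at 0.0282, *Cacna1c* at 0.16 and *Cacna1d* at 0.22. *Cacna1c* was at 0.0264 with equal library totals and 0.12 with name style, which gave -0.11 for *Cacna1h* and -0.0002 for *Cacnb3*.

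With 1 library left out, log2 fold changes in *Lhx6* mutants crossed 0 for *Scn2a* (-0.0328 to 0.20), *Cacna1a* (-0.0836 to 0.37), *Cacna1b* (-0.22 to 0.0098), *Cacna1c* (-0.0227 to 0.22), *Cacna1g* (-0.0035 to 0.38), *Cacnb1* (-0.0955 to 0.2755), *Hcn3* (-0.14 to 0.12) and *Nalcn* (-1.30 to 0.0121). In the libraries labelled *Mtg8* mutant they did so for *Scn8a* (-0.42 to 0.26), *Scn2b* (-0.10 to 0.22), *Cacna1a* (-0.55 to 0.14), *Cacna1c* (-0.2745 to 0.073), *Cacna1d* (-0.60 to 0.0217), *Cacna1e* (-0.30 to 0.34), *Cacna1h* (-0.33 to 0.29), *Cacna2d2* (-0.39 to 0.14), *Cacnb1* (-0.15 to 0.79), *Cacnb3* (-0.15 to 0.27) and *Hcn3* (-0.0927 to 0.24). Some values in these libraries kept their sign but moved widely, such as *Scn2a* (-0.59 to -0.0141), *Scn3a* (-0.53 to -0.14), *Scn9a* (-0.66 to -0.0951) and *Hcn4* (-1.14 to -0.13). Among partner genes *Rims1* ranged from -0.85 to -0.14, *Rem2* from 0.26 to 1.56 and *Cachd1* from 0.23 to 0.75. Depth limits the genes with few or no reads, where a count of 0 allows up to 3 reads. This limit covers counting error only, since amplified reads are not independent molecules.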
